A study of Sus scrofa with 18 samples.

Results

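The let-7 family was described in the backfat of 18 Italian Large White pigs. Its members were taken by name from the deposited count table, as every mature microRNA (miRNA) named let-7 together with miR-98, which gave 9 of 240 mature miRNAs: ssc-let-7a, ssc-let-7c, ssc-let-7d-5p, ssc-let-7d-3p, ssc-let-7e, ssc-let-7f, ssc-let-7g, ssc-let-7i and ssc-miR-98 (named without the species prefix from here on). They came from 10 of 210 hairpin precursors and from 1492 of 16636 distinct read sequences. Backfat, the subcutaneous fat along the back, was taken at a commercial slaughterhouse from 9 pigs with high and 9 with low fat deposition, all of 150 to 160 kg and kept on the same diet, and small RNA was sequenced with 1 library per animal. The pigs with high backfat were 4 females and 5 castrated males of 235 to 250 days, and those with low backfat 5 females and 4 castrated males of 233 to 249 days. The labels do not state the fat thickness that set the classes, and each library comes from whole tissue with all its cell types. In such bulk tissue, fewer cells of a type and less RNA per cell cannot be told apart.

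The let-7 miRNAs are an ancient family. They load into Argonaute proteins and lower the translation and stability of messenger RNAs that pair with their seed, the short run of bases near the 5′ end. They accumulate as cells differentiate, the RNA-binding proteins LIN28A and LIN28B block their maturation, and the family is known for restraining insulin and growth signalling, including the insulin receptor and IGF1R, in metabolic tissues. Members differ in a few bases outside the seed, so a family tends to share targets while each gene is transcribed from its own locus or cluster.

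The mature sequences are shown because the members with the common seed differ from each other by 1 to 6 bases only, which decides how reads can be assigned. In each of the following lines the seed (bases 2 to 8) is in capitals, as DNA letters 5′ to 3′, read from the deposited table.
let-7a: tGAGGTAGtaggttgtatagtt
let-7c: tGAGGTAGtaggttgtatggtt
let-7d-5p: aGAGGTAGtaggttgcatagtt
let-7e: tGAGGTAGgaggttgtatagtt
let-7f: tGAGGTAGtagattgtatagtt
let-7g: tGAGGTAGtagtttgtacagtt
let-7i: tGAGGTAGtagtttgtgctgtt
miR-98: tGAGGTAGtaagttgtattgtt
let-7d-3p: cTATACGAcctgctgcctttct
The first 8 share the seed GAGGTAG. Of the 225 mature miRNAs with an exact sequence in the table, these 8 alone carried it. let-7d-3p, the opposite arm of the let-7d hairpin, has the seed TATACGA, which no other of the 225 carried. Counted from the 5′ end of let-7a, let-7c differs from it by A19G, let-7f by G12A and let-7e by T9G. The table annotates let-7i with 19 bases, and the 22-base sequence shown is its most abundant form.

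Together the family held 6.81% ± 0.698 of all counts (SD, n = 18), from 5.02% in low replicate 7 to 7.98% in high replicate 8, with 9601510 to 34588252 counts per library. Each read was counted once, which gave 26987202 let-7 reads. Reads listed under more than 1 member made up 77 sequences and 78981 reads, or 0.293% of the family, and no let-7 read was listed under a miRNA outside it. The largest such set was 31822 reads in 11 sequences that fit both let-7a and let-7e. Reads shared with any other member were 4.34% of let-7e and 0.811% of let-7a, but none of let-7d-3p. Counts thus overlapped little between mature members, but gene copies could not be told apart: 99.3% of let-7a reads fit both let-7a-1 and let-7a-2, and 93.3% of let-7f reads fit both let-7f-1 and let-7f-2. In the RefSeq annotation of Sscrofa11.1, used for names only, MIRLET7A-2, MIRLET7F-2 and MIRLET7D are neighbours within 10000 bases, as are MIRLET7F-1 and MIR98. MIRLET7C lies beside MIR99A, MIRLET7A-1 beside MIR100, and MIRLET7E beside MIR99B and MIR125A, while MIRLET7G and MIRLET7I have no such neighbour.

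let-7a was the most abundant member. Levels are given as counts per 1000000 after TMM scaling (CPM), and mature miRNAs of like length need no length correction. let-7a averaged 20433 ± 2456 CPM (SD, n = 18) and was above let-7c in 18 of 18 libraries. let-7c averaged 11837 ± 1585 CPM, let-7f 11563 ± 2370 and let-7i 10699 ± 1832. The order of these 3 was not fixed: let-7c was above let-7f in 9 of 18 libraries and let-7f above let-7i in 13. let-7g followed with 8423 ± 1396 CPM, below let-7i in 17 of 18 libraries. let-7e had 2653 ± 447 CPM, miR-98 1831 ± 778, let-7d-5p 887 ± 116 and let-7d-3p 161 ± 31.8. let-7e was above miR-98 in 15 libraries, miR-98 above let-7d-5p in 16, and let-7d-5p above its opposite arm in 18.

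**Figure D1:**
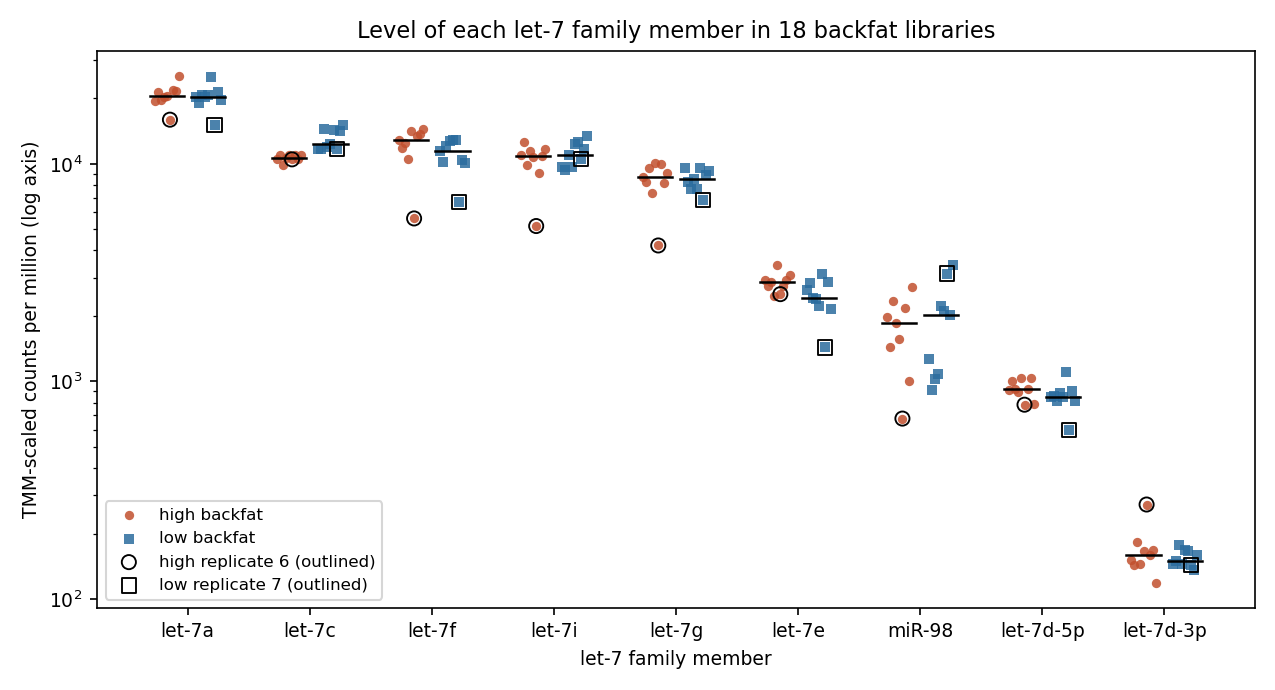
TMM-scaled CPM (log axis) of the 9 members in each library, ordered by mean level, with high backfat as circles, low backfat as squares and the class median as a line. let-7c is the one member whose 2 classes do not overlap in this scaling. The outlined high replicate 6 and low replicate 7 lie at the low end of several members.

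Of the members, miR-98 varied most between libraries. Its lowest level was 675 CPM in high replicate 6 and its highest 3434 CPM in low replicate 9, and libraries of both classes lay near either end. After TMM scaling let-7c varied little within the high class, where it stayed between 9874 and 11013 CPM. By library totals its spread there was wider. Its reads with G at position 17 (described below) ran from 4298 CPM in high replicate 9 to 8005 CPM in high replicate 6. Those with A ran from 4489 to 6352 CPM in the same libraries. A pair of libraries recurred at the edge of the family. High replicate 6 had the lowest let-7f (5611 CPM), let-7g (4215 CPM), let-7i (5177 CPM) and miR-98 and the highest let-7d-3p (272 CPM), and low replicate 7, the library with the fewest counts, had the lowest let-7a (15128 CPM), let-7e (1433 CPM) and let-7d-5p (597 CPM). The results that rest on these libraries are given without them below.

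Across the 18 libraries, as a description, log2 CPM of let-7a and let-7f had Pearson r = 0.83, let-7f and let-7g 0.81, and let-7d-5p and let-7e 0.81. let-7c followed none of these, with r = 0.20 to let-7a, -0.01 to let-7f and -0.21 to let-7e. The arms of let-7d had r = 0.04. All these values share libraries, depth and scaling, and let-7c differs by class, as given below. The 3′ arm of let-7d was recovered at 14.3 to 34.8 reads per 100 of its 5′ arm in the high class (median 16.3) and at up to 24.0 in the low class (median 17.4). The highest value was that of high replicate 6.

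The exact annotated sequence was the most abundant form in 8 members. It held 62.1% to 68.6% of the reads of let-7a, let-7d-5p, let-7d-3p, let-7e, let-7f, let-7g and miR-98, 36.7% of let-7c, and 0.722% of let-7i, whose annotated end lies 3 bases short of its usual end. The 22-base form held 75.4% of let-7i reads. The form 1 base shorter at the 3′ end came next in let-7a, let-7d-5p, let-7d-3p, let-7e, let-7f, let-7g and miR-98, with 15.2% of let-7a, 17.1% of let-7f and 18.2% of let-7e reads. Forms with 1 extra T after the 3′ end held 4.62% of let-7a, 5.84% of let-7f and 5.54% of let-7g reads, and forms with 1 extra A held 2.26%, 3.05% and 3.11%. Such forms of let-7i were not listed, since no listed read reached more than 3 bases past an annotated end.

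**Figure D2:**
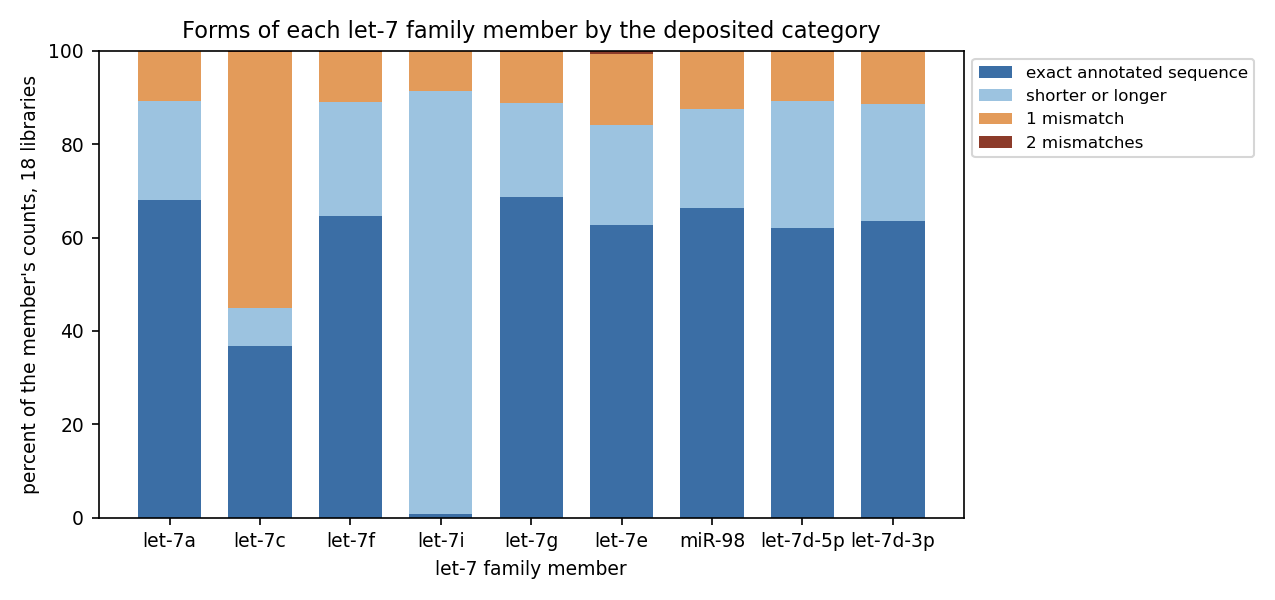
Percent of each member's counts over 18 libraries in the 4 categories of the deposited table: the exact annotated sequence, shorter or longer forms, 1 mismatch and 2 mismatches. let-7c stands apart with 54.8% of its counts at 1 mismatch and let-7i with 90.6% in shorter or longer forms.

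The 5′ end, which sets the seed, was nearly uniform. Forms whose 5′ end was shifted held 0.0133% to 0.497% of the 8 members with the shared seed, but 7.53% of let-7d-3p. Most of the latter was 1 form that starts 1 base later and held 6.32% of let-7d-3p reads. It is shown with its own bases 2 to 8 in capitals, since the shift replaces the seed TATACGA by ATACGAC.
let-7d-3p: cTATACGAcctgctgcctttct
let-7d-3p, 1 base shorter at the 5′ end: tATACGACctgctgcctttct

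The reads counted as let-7c came in 2 nearly equal sequences, which differ at position 17 alone. The base at that position is in capitals in the lines that follow.
let-7c, annotated: tgaggtagtaggttgtAtggtt
let-7c, A17G form: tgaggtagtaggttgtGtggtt
The annotated A at position 17 was present in 51.0% of let-7c reads (2389408 reads) and G in 48.9% (2290187 reads). The share with G ran from 44.0% in high replicate 5 to 55.8% in high replicate 6, so that both bases were present in every library at a like level. In the 6 other members with A at this position, G there was found in 0.0457% to 0.123% of reads. The A17G sequence is the one known as let-7b in other mammals. Every such read is listed under let-7c with 1 mismatch, and whether these reads come from the let-7c gene or another one was not tested. Of let-7c sequences, 11 with G were listed, against 188 with A. No read with G and a further mismatch is listed, while reads with A and a mismatch are. These counts and the length shares that follow are therefore not of like sets. Reads with G were more often 23 bases long (17.7% against 7.99%) and less often 22 bases long (55.4% against 79.0%). Values of let-7c are therefore given for all its reads and for each base separately.

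Substitutions at positions 3, 7 and 10 were found in all 8 members with the shared seed, at shares that differed widely between libraries. They are shown on let-7a, with the changed base in capitals, because 2 of the positions lie in the seed and would change it if the base were present in the RNA.
let-7a, A3T: tgTggtagtaggttgtatagtt
let-7a, A7C: tgaggtCgtaggttgtatagtt
let-7a, A10C: tgaggtagtCggttgtatagtt
let-7a, A7G: tgaggtGgtaggttgtatagtt
let-7a, A10G: tgaggtagtGggttgtatagtt
Of let-7 reads, 0.827% to 5.97% carried A3T, 0.000377% to 2.51% A7C and 0% to 4.45% A10C. The class medians of A3T were 3.02% (high) and 2.95% (low). The library codes in the labels fall into 4 runs of consecutive numbers, and what a run stands for is not stated. The 4 libraries coded AC485 to AC488 had 3.99% to 4.45% A10C and 2.34% to 2.46% A7C. The 6 libraries coded U134 to U139 had at most 0.0791% and 0.0903% of these, but 0.827% to 5.97% A3T. The other runs were mixed, with 0.000290% to 1.78% A10C and 0.00124% to 2.51% A7C in U074 to U077, and 0% to 2.43% A10C and 0.000377% to 2.48% A7C in U966 to U969.

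A7G and A10G marked still smaller sets. A7G held 0.413% of let-7 reads in high replicate 6 and 0.431% in high replicate 8, and 0.0866% and 0.0923% in high replicates 1 and 3. In the other 14 libraries it held at most 0.0249%. A10G held 0.676% in high replicate 5 and 0.688% in low replicate 6 and at most 0.0276% in the others. In each of the 8 members by itself, A7G was at 0.208% to 0.524% in high replicates 6 and 8, and A10G at 0.360% to 0.798% in high replicate 5 and low replicate 6. The libraries with the most A7G are all of the high class. The labels state that 2 samples shared a lane without saying which, and the source of these substitutions was not tested.

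**Figure D3:**
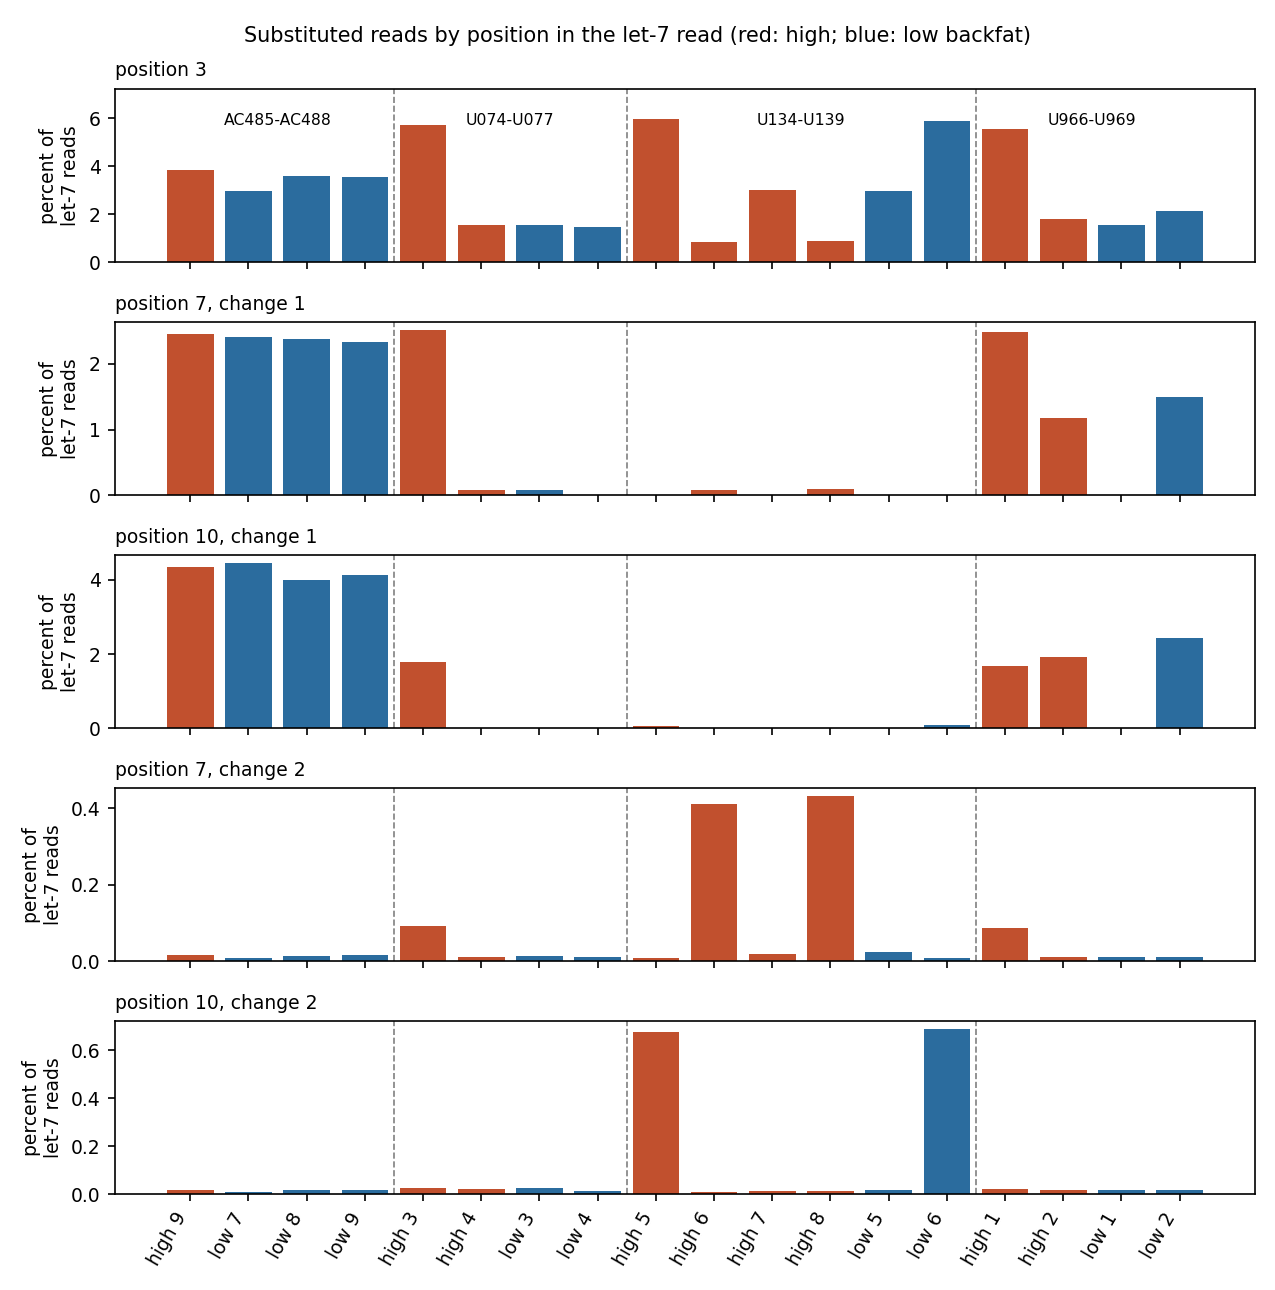
Percent of let-7 reads with a given substitution in each library, grouped by run of library codes (dashed lines), with high backfat in red and low backfat in blue. The panels show A3T (position 3), A7C and A7G (position 7, changes 1 and 2) and A10C and A10G (position 10, changes 1 and 2); the AC485-AC488 libraries share 3.99% to 4.45% of position 10, change 1, whatever their class.

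Between backfat classes, let-7c was lower in high than in low backfat, and it alone of the 9 members passed the test. In the high class, let-7c was at 9874 CPM in the lowest, 10626 in the median and 11013 CPM in the highest library. In the low class these values were 11642, 12285 and 15134 CPM. The classes did not overlap in this scaling. The low class itself fell into 5 libraries of 11642 to 12285 CPM and 4 of 14079 to 15134 CPM. With library totals in place of TMM, the classes overlapped. High replicate 6 had 6352 CPM with A and 8005 with G at position 17, against 5041 and 5421 CPM in low replicate 7. By edgeR's quasi-likelihood F test with sex as a covariate, let-7c fell by 0.28 ± 0.07 on the log2 scale (SE; Benjamini-Hochberg adjusted p = 0.0486 over 221 miRNAs). The test called 8 of 221 miRNAs (3.62%), 5 of them lower in high backfat (2.26%) and 3 higher (1.36%), and 54 (24.4%) had an unadjusted p under 0.05. In TMM-scaled CPM, let-7c was the 1 miRNA of 221 (0.452%) whose classes did not overlap.

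The call of let-7c lay close to the threshold. Its log2 fold change stayed between -0.30 and -0.24 when any 1 library was left out, but its adjusted p ran from 0.0306 to 0.0996, and it passed in 3 of 18 such fits. It also passed in DESeq2 (-0.27, adjusted p = 0.0061), which called 22 of 220 miRNAs (10%), and did not pass with library totals in place of TMM (-0.20, adjusted p = 0.248, edgeR). Within the 4 runs of library codes let-7c was lower in the high class each time, by 0.31 (1 against 3 libraries), 0.36 (2 against 2), 0.30 (4 against 2) and 0.12 (2 against 2) on the log2 scale. The call was lost in edgeR with run as a covariate (-0.26, adjusted p = 0.117), with age as a covariate (-0.29, adjusted p = 0.0597) and when AC485 to AC488 were left out (-0.24, adjusted p = 0.237).

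Both sequences of let-7c had the same direction. Reads with A at position 17 were at 4550 CPM in the lowest, 5318 in the median and 6068 in the highest library of the high class, and at 5541, 6717 and 8363 CPM in the low class. Reads with G were at 4781, 5325 and 5734 CPM in the high class and at 5786, 6065 and 7024 CPM in the low class. In these TMM-scaled values, the classes did not overlap with G. With A, 7 of 9 low libraries were above the highest of the high class. With library totals in place of TMM, the classes overlapped for reads with G. High replicate 6 was then at 8005 CPM, above the highest low library (7475 CPM, low replicate 3). The 2 sequences were also tested as separate miRNAs, which was chosen after they were seen. Their log2 fold changes were -0.31 ± 0.09 (A) and -0.24 ± 0.07 (G), each with an edgeR adjusted p of 0.0562. That fit called 3 of 222 miRNAs (1.35%), 2 higher (0.901%) and 1 lower (0.45%). In DESeq2 their adjusted p-values were 0.018 and 0.0089. The log2 ratio of G to A did not differ between classes beyond its spread, with -0.030 ± 0.186 for high and -0.086 ± 0.137 for low backfat (SD over 9 libraries; exact two-sided permutation test, adjusted p = 0.732).

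The ratio of let-7c to let-7a within a library needs no scaling between libraries. There were 43.2 let-7c reads per 100 let-7a reads in the lowest, 51.2 in the median and 65.7 in the highest library of the high class, against 57.3, 60.9 and 77.4 in the low class. The highest value of the high class was that of high replicate 6, and without it the highest of that class would lie below all 9 of the low class. The log2 ratio averaged -0.945 ± 0.160 for high and -0.632 ± 0.176 for low backfat (SD over 9 libraries), -0.31 apart. By the exact two-sided permutation test this gave p = 0.0012 and an adjusted p of 0.0074 over the family of 12 values within libraries. The ratio of let-7c reads with A at position 17 to let-7a differed by -0.34 (exact permutation test, adjusted p = 0.0064), with all 9 high libraries below the low median. Within the 4 runs of library codes the let-7c to let-7a ratio was lower in the high class by 0.77, 0.33, 0.10 and 0.17 on the log2 scale. In each sex alone, the exact permutation test of 9 libraries gave -0.18 in females (adjusted p = 0.548) and -0.45 in castrated males (adjusted p = 0.0952).

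**Figure D4:**
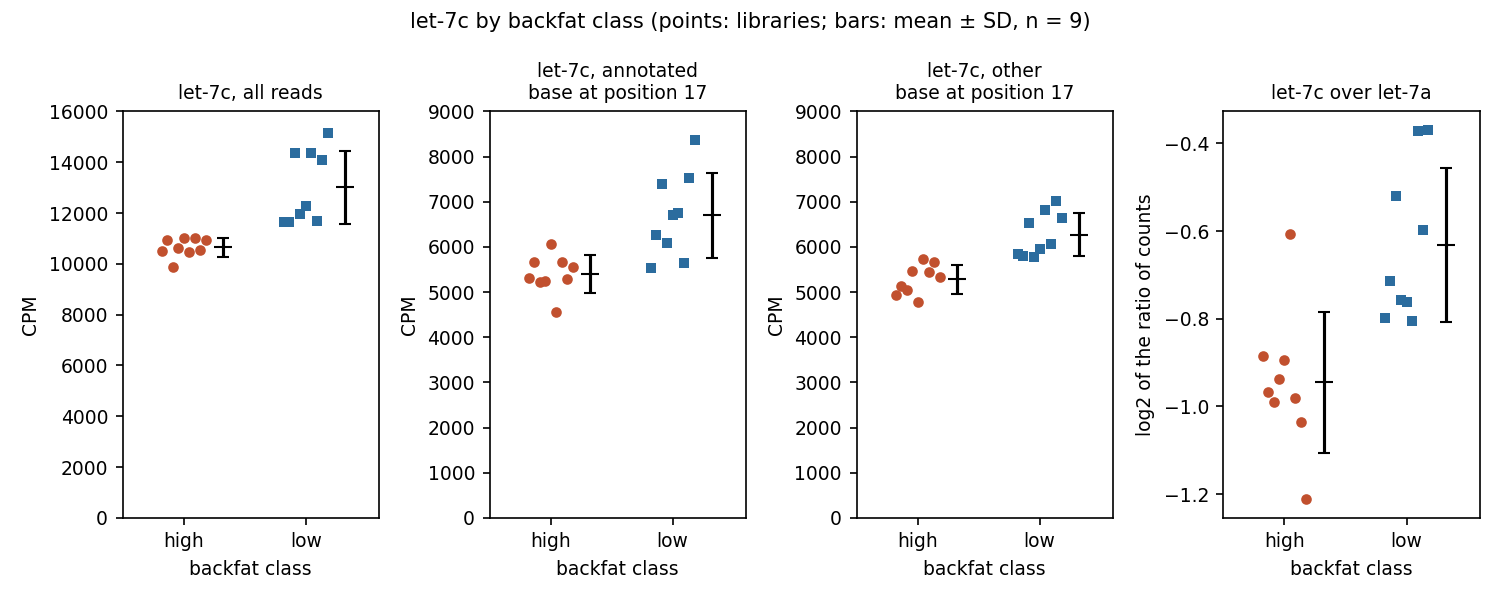
let-7c in each library by backfat class: CPM of all its reads, of reads with the annotated base at position 17 and of reads with the other base, and the log2 ratio of let-7c to let-7a counts (points are libraries, bars the mean and SD, n = 9). In TMM-scaled CPM of all its reads, all 9 high libraries lie at or below 11013 and all 9 low libraries at or above 11642.

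The 8 other members did not pass the test. let-7a, the main member, had 15951, 20456 and 25299 CPM in the lowest, median and highest library of the high class and 15128, 20247 and 25059 CPM in the low class. These ranges all but coincide, with a log2 fold change of 0.04 ± 0.10 and an interval of 2 SE from -0.15 to 0.23. let-7f, which differs from let-7a at position 12, had 5611, 12830 and 14422 CPM in the high class and 6702, 11442 and 12902 CPM in the low class (0.12 ± 0.16). let-7i had 5177, 10857 and 12567 CPM against 9372, 10934 and 13365 CPM (-0.12 ± 0.13). let-7g had 4215, 8718 and 10107 CPM against 6845, 8538 and 9567 CPM (-0.03 ± 0.13). In all these the classes overlapped over most of their range, with edgeR adjusted p-values from 0.604 to 0.886 for let-7a, let-7f, let-7i and let-7g.

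let-7e, whose gene lies in the cluster with miR-99b and miR-125a, was at 2468, 2879 and 3435 CPM with high and at 1433, 2416 and 3103 CPM with low backfat. All 9 high libraries were above the low median, yet the ranges overlapped, and the log2 fold change of 0.23 ± 0.12 had an edgeR adjusted p of 0.256. miR-98 had 675, 1858 and 2706 CPM against 918, 2030 and 3434 CPM (-0.17 ± 0.28). Its log2 difference between the classes was 0.98 and 0.64 in 2 runs of library codes (U074 to U077 and U966 to U969), -0.81 in U134 to U139 and -0.05 in AC485 to AC488, which holds the library with the most miR-98. let-7d-5p had 782, 919 and 1040 CPM against 597, 848 and 1105 CPM (0.12 ± 0.10), and its opposite arm let-7d-3p 119, 159 and 272 CPM against 136.8, 150 and 178 CPM (0.13 ± 0.13). Over the family, 5 of 9 members had a positive and 4 a negative log2 fold change, with a median of 0.04. Over all 221 tested it was 103 positive and 118 negative, with a median of -0.03.

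No member passed the test between castrated males and females, where edgeR called 0 of 221 miRNAs (0%). An unadjusted p under 0.05 was found for 17 (7.69%), none of them let-7. The log2 fold changes of the members ran from -0.14 ± 0.13 for let-7d-3p to 0.31 ± 0.28 for miR-98. Within females, high against low backfat gave 0 calls of 221 (0%), and 20 (9.05%) had an unadjusted p under 0.05, 1 of which was let-7c (-0.31 ± 0.11, adjusted p = 0.282). Within castrated males 9 of 221 were called (4.07%; 5 higher, 2.26%, and 4 lower, 1.81%), none of them let-7. At an unadjusted p under 0.05 there were 49 (22.2%), 3 of them let-7, and let-7c had -0.26 ± 0.11 (edgeR adjusted p = 0.184). The difference between the sexes in let-7c was 0.06 ± 0.15 (edgeR adjusted p = 0.918).

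let-7e and let-7f had the widest gap between the sexes among the members. In castrated males let-7e had a log2 fold change of 0.47 ± 0.16 (edgeR adjusted p = 0.133) and let-7f of 0.44 ± 0.20 (adjusted p = 0.200). In females these were -0.01 ± 0.16 and -0.20 ± 0.20. The difference between the sexes was 0.48 ± 0.22 for let-7e and 0.65 ± 0.28 for let-7f, each with an adjusted p of 0.433 in edgeR, so it did not pass. That test called 0 of 221 miRNAs (0%), with 25 (11.3%) at an unadjusted p under 0.05, 2 of them these let-7 members. With 1 library left out, the castrated-male contrast passed in 1 of 18 edgeR fits for each: let-7e without low replicate 2 (0.63, adjusted p = 0.0247) and let-7f without high replicate 6 (0.48, adjusted p = 0.0496). Without low replicate 7, the castrated-male values of let-7e and let-7f were 0.31 and 0.30. Without high replicate 6 (a female) and low replicate 7 (a castrated male), the fold change of let-7f within females was 0.0010, and the difference between the sexes was 0.31 for let-7e and 0.30 for let-7f.

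**Figure D5:**
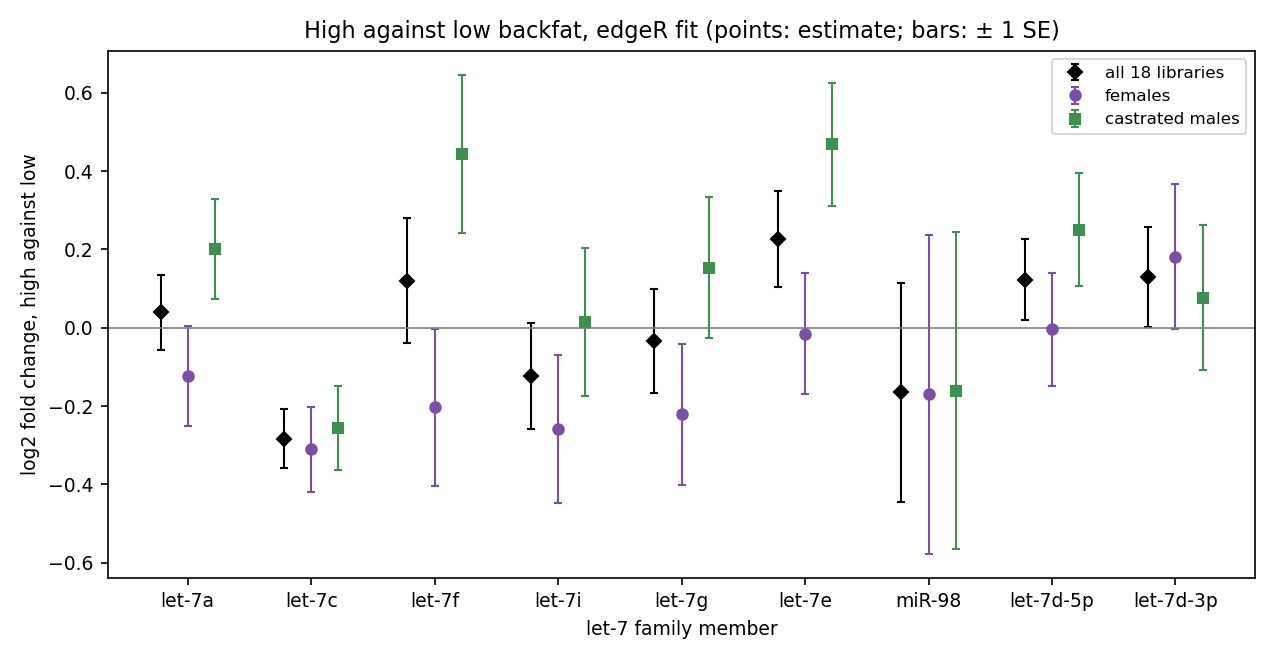
Log2 fold change of high against low backfat for each member from the edgeR fits, over all 18 libraries (diamonds) and within females (circles) and castrated males (squares), with bars of 1 SE. let-7c lies below 0 in all 3 (-0.28, -0.31 and -0.26), while let-7e and let-7f lie at 0.47 and 0.44 in castrated males.

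Single sequences of the family were tested as entries of the table, each 1 sequence under 1 precursor and 1 mature miRNA. Of 2056 let-7 entries, 823 had enough counts to be tested, and edgeR called none of them, against 15 of all 7330 (0.205%), 3 higher (0.0409%) and 12 lower (0.164%). At an unadjusted p under 0.05 there were 47 let-7 entries of 823 (5.71%), against 684 of 7330 (9.33%). DESeq2, fitted to the same 7330 entries, called 258 of the 6868 with an adjusted p (3.76%), 25 of them let-7. These 25 are out of at most 823 let-7 entries and are not read as a result about the family. These 25 are not all separate sequences, since some let-7a and let-7f forms are listed under 2 precursors. They include A7G forms of let-7a, let-7c, let-7f, let-7g and let-7i. In edgeR, let-7c had 12 entries of 84 at an unadjusted p under 0.05, 10 of them lower with high backfat (4.94% over all entries), and let-7e had 8 of 52, all higher (4.39% over all entries). Among the exact form and the 3 most abundant other forms of each member, 36 in all, 15 had a negative and 21 a positive log2 fold change, from -0.37 to 0.33, and none passed (lowest edgeR adjusted p = 0.238). The 3 sequences with the lowest p were a 20-base let-7i form with G20T, a 20-base let-7c form with A17G and the 22-base let-7a form with A7G. The let-7c form was at 394 ± 94.0 CPM with high and 569 ± 94.1 CPM with low backfat (SD over 9 libraries; -0.52 ± 0.13, adjusted p = 0.110 in edgeR). The let-7a form with A7G was at 23.7 ± 34.7 CPM against 2.75 ± 0.821 CPM, and the 4 libraries with the most A7G, named above, are all of the high class.

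Shares of forms within the family differed little between classes. The exact form held 51.8% ± 2.52 of let-7 reads with high and 49.9% ± 3.23 with low backfat (SD over 9 libraries; exact two-sided permutation test, adjusted p = 0.36). Reads with 1 extra T held 5.02% ± 0.529 and 5.18% ± 0.376 (exact permutation test, adjusted p = 0.732). Reads with 1 extra A held 2.12% ± 0.216 with high and 1.86% ± 0.168 with low backfat, 0.26 percentage points apart, with an adjusted p of 0.0487 (exact permutation test). It passed in 6 of 18 comparisons that left out 1 library, with adjusted p from 0.0202 to 0.0979, and not without high replicate 6 and low replicate 7 (0.24 percentage points, adjusted p = 0.12; exact permutation tests). No form with an extra A is listed for let-7i or for let-7c with G at position 17, and without all reads of let-7c and let-7i the difference was 0.24 percentage points with an adjusted p of 0.124 (exact permutation test). The share of let-7 in all counts was 6.88% ± 0.634 and 6.75% ± 0.790, and the log2 ratio of let-7d-3p to let-7d-5p was -2.49 ± 0.384 and -2.45 ± 0.234, with exact permutation adjusted p-values of 0.843 each.

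The miRNAs listed as cluster partners of let-7 did not pass between classes. One of them, miR-125b, has no let-7 gene within 10000 bases in the annotation used for names. Of miR-99a, miR-99b, miR-100, miR-125a and miR-125b, 2 had a positive and 3 a negative log2 fold change, and none of 5 was called. miR-99a, the neighbour of let-7c, was at 2703 ± 207 CPM with high and 3208 ± 487 CPM with low backfat (SD over 9 libraries), and its fold change of -0.24 ± 0.10 on the log2 scale had an edgeR adjusted p of 0.150. The neighbours of let-7e, miR-99b (0.28 ± 0.19) and miR-125a (0.16 ± 0.19), had the same sign as let-7e. Over 18 libraries miR-99a had Pearson r = 0.69 to let-7c (Spearman rho = 0.48, permutation p adjusted over 212 of 0.0442 for r). This r was 0.58 within the low and -0.06 within the high class, and r to let-7a was 0.03. To let-7c reads with A at position 17 alone, r was 0.60 (Spearman rho = 0.41). Its permutation p adjusted over 212 was 0.116, so that r did not pass.

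Of the 212 tested miRNAs outside the family, those with the highest Pearson correlation to let-7c in log2 CPM over 18 libraries were miR-199a-5p (r = 0.84, Spearman rho = 0.80), miR-199a-3p (0.79 and 0.90) and miR-181c (0.78 and 0.83). Their permutation p-values for r, adjusted over the 212, were 0.00212, 0.00318 and 0.00636, and the unadjusted ones for rho were 8e-05, 1e-05 (the smallest that 100000 permutations can give) and 8e-05. Without the 2 libraries farthest from the median of let-7c, r was 0.81, 0.73 and 0.76. Since let-7c in TMM-scaled CPM separates the classes, r within each class is the plainer measure. In the low class it was 0.87, 0.88 and 0.79, and in the high class, where TMM-scaled let-7c hardly varied, 0.10, 0.23 and -0.08 (n = 9 each). For reads with A at position 17 alone, the highest were miR-199a-3p (r = 0.84), miR-199b-3p (0.82) and miR-130a (0.80). Within the high class these r were 0.82, 0.85 and 0.14, and within the low class 0.71, 0.71 and 0.86. For reads with G they were miR-199a-5p (0.79), miR-181c (0.72) and miR-196b-3p (0.70), with 0.10, 0.02 and 0.69 in the high class. Their r in the low class was 0.83, 0.68 and 0.48. For let-7a the highest were miR-28-5p (r = 0.65), miR-218b (0.63) and miR-7 (0.62), each with a permutation p adjusted over 212 of 0.284. Without the 2 libraries farthest from the median of let-7a, these r fell to 0.13, 0.42 and 0.42, so they rest on those libraries in part.

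Markers of tissues and cell types were measured in the same libraries. The 8 tested miRNAs listed for fat cells and their precursors held 154295 to 318369 CPM with high and 224014 to 320308 CPM with low backfat. Of these 8, 4 had a positive and 4 a negative log2 fold change. An unadjusted p under 0.05 was found for 2 (24.4% over all 221 miRNAs), and 1 passed (3.62% over all 221). It was miR-365-5p, higher with high backfat (1.07 ± 0.23, edgeR adjusted p = 0.0387). It was at 9.04 to 29.3 CPM with high and 5.24 to 13.0 CPM with low backfat. The more abundant arm, miR-365-3p, did not pass (0.14 ± 0.15, edgeR adjusted p = 0.58). Of 8 miRNAs listed for skeletal muscle, 4 were tested, and all 4 had a negative log2 fold change. Each of the 4 had an unadjusted p under 0.05 (24.4% over all 221 miRNAs), but none passed the threshold. Their summed level was 48.3 to 130 CPM in the high class (median 65.6) and 78.9 to 211 CPM in the low class (median 141), with miR-1 listed at 0 in at least 1 library of the high class and at no more than 11.8 CPM anywhere. It moved in the direction of let-7c, and its part in the let-7c difference was not tested. Of the 3 red blood cell miRNAs, the 3 leukocyte and the 2 endothelial ones, none passed, and their summed levels overlapped between classes. The single tested miRNAs listed for liver (miR-122), neurons (miR-9) and epithelium (miR-205) did not pass either.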

How the data were processed

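A table deposited by the authors gives the raw count of each read sequence under its precursor and mature miRNA, and a further table gives normalised counts, whose deposited signal equals the count divided by 1 size factor per library, as found by dividing the tables. Bowtie 0.12.7, HTSeq, DESeq2 1.4.5 and the build Sscrofa10.2 were used per the submitters' processing notes, and the role of each is not described. The labels give no settings for trimming or mismatches. Per the labels' protocols, total RNA was extracted with Trizol and libraries made with the TruSeq Small RNA kit. A table of this kind cannot tell sequencing errors from bases present in the RNA. The tables hold 2 columns that match no sample, which were not used.

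Each sequence was counted once per mature miRNA. A sequence listed under several members counts under each and, for the family, once. Library totals were taken over distinct sequences. Groups and sex came from the labels, and each animal had its own number. The members and lists were chosen with earlier results of these data known. Members are all those the naming rule finds, and the cluster partners are the 5 listed miRNAs. Forms are the exact and the 3 most abundant others plus the 3 of lowest p, and likeness takes the 3 highest correlations. The position-17 split, leaving out high replicate 6 and low replicate 7, and the forms with 2 extra bases were chosen after the values were seen.

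Counts were fitted in edgeR 4.0.16 (R 4.3.3) after filterByExpr (minimum count 10) and TMM, with the quasi-likelihood F test, Benjamini-Hochberg adjustment over all features and a threshold of 0.05. Sex was a covariate, and 4 cells of sex by class gave the within-sex contrasts. For log2 CPM the prior count was 2, and the SE was derived from the F statistic. Values within libraries were compared by exact two-sided permutation tests over 48620 splits, adjusted over 12 values. Correlations used 100000 permutations. Alternatives were DESeq2 1.42.0, limma 3.58.1 on log2 of the deposited normalised signal plus 1, other scalings, filters, covariates, rules of counting and leaving libraries out. The fits were tested on simulated counts. No genome of the authors' build was used, so no coordinates are given.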

Additional observations from a re-analysis of the deposited data

Results flagged for a closer look

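Single libraries stood far from the other 8 of their class in 8 of 46 sets of values, by Dixon's criterion, which chance meets in about 1 in 20 groups. High replicate 6 accounted for 5: let-7f at 5611 CPM (next lowest 10576), let-7g at 4215 CPM (next 7360), let-7i at 5177 CPM (next 9085), let-7d-3p at 272 CPM (next highest 182) and a log2 ratio of let-7d-3p to let-7d-5p of -1.52 (next -2.33). Low replicate 7, the library with the fewest counts, accounted for 2: let-7f at 6702 CPM (next 10078) and a let-7 share of counts of 5.02% (next 6.42%). High replicate 3 had the lowest let-7c of its class, at 9874 CPM (next 10483).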

How the results depend on the processing

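Of the 9 members, let-7c kept a negative log2 fold change in every fit that was run. It also passed with a mean of at least 10 CPM (-0.31), DESeq2 (-0.27), no sex term (-0.29), reads given to the nearest member (-0.30) and without high replicate 6 and low replicate 7 (-0.29). It did not pass (adjusted p in parentheses) with DESeq2 size factors at -0.27 (0.0511), library totals at -0.20 (0.248), no filter at -0.27 (0.0704), limma at -0.19 (0.223), age as a covariate at -0.29 (0.0597), run of library codes at -0.26 (0.117), all listings summed at -0.20 (0.101), exact matches at -0.24 (0.111), exact and length forms at -0.30 (0.0727) or without AC485 to AC488 at -0.24 (0.237). In these, 0 let-7 members passed. The 8 miRNAs called became 1 with DESeq2 size factors, 1 with no filter, 22 with DESeq2, 3 with exact and length forms, and 0 with library totals, limma, age or without AC485 to AC488. With 1 library left out, 0 to 13 miRNAs and 0 to 1 let-7 members passed and let-7c ran from -0.30 to -0.24. Its call was kept without low replicate 1, high replicate 6 or low replicate 7 and lost without any of the other 15.

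Fold changes near 0 turned sign. For let-7g it was 0.024 with library totals, 0.028 with limma, 0.0060 with age, 0.038 with all listings, 0.041 with exact matches and 0.025 without high replicate 6 and low replicate 7, and -0.094 to 0.081 with 1 library left out. For miR-98 it was 0.14 with run as a covariate, 0.24 without AC485 to AC488 and 0.079 without those 2 libraries. let-7a reached -0.056 and let-7f -0.060 without AC485 to AC488, and let-7a ran from -0.014 to 0.10 with 1 library left out. let-7d-3p reached -0.016 without high replicate 6 and low replicate 7. Between castrated males and females, miR-98 reached -0.0015 with run as a covariate and let-7d-3p 0.0067 without those 2 libraries, or -0.16 to 0.010 with 1 left out. Within females, let-7e was 0.0035 and let-7f 0.0010 without them, and let-7e ran from -0.073 to 0.049. Within castrated males 2 to 14 miRNAs and 0 to 1 let-7 members passed with 1 library left out, and 0 to 3 miRNAs for the difference between sexes. Of single entries, 56 (3 let-7) passed with a mean of at least 10 CPM, 258 (25 let-7) with DESeq2, and 0 to 29 with 1 library left out.

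The let-7c to let-7a ratio did not pass within females (-0.18) or castrated males (-0.45). The let-7d arm ratio was 0.13 in females, and -0.16 to 0.014 with 1 library left out. The let-7 share differed by -0.011 percentage points without the 2 libraries, and by -0.091 to 0.25 with 1 left out. The 5′ shifted share differed by -0.0051 in castrated males, -0.0079 without the 2 libraries, and -0.0026 to 0.0094 with 1 left out. The cause of these changes was not tested. No paired analysis was possible because each animal is in 1 class only and its number pairs no samples.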

Other observations

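Forms of let-7 with 2 extra A at the 3′ end were more frequent with high backfat. These forms were chosen after their values were seen, so the comparison describes these libraries only. The p-values given for them take no account of that choice, and those with libraries left out reuse the same data. They held 0.0875% of let-7 reads in the lowest, 0.109% in the median and 0.123% in the highest library with high backfat, against 0.0458%, 0.0728% and 0.100% with low backfat. All 9 high libraries were above the low median, and 5 were above the highest low library. The means were 0.105% ± 0.0130 and 0.0702% ± 0.0163 (SD over 9 libraries; exact two-sided permutation test, p = 0.00029). With these forms in place of 1 extra A in the family of 12 values, the adjusted p of that permutation test was 0.0032. With any 1 library left out, the exact permutation p ran from 4.1e-05 to 0.00058, and without high replicate 6 and low replicate 7 it was 0.00093. The difference was 0.025 percentage points in females and 0.046 in castrated males. Within runs of library codes it was 0.033 (AC485 to AC488), 0.049 (U074 to U077), 0.036 (U134 to U139) and 0.0020 (U966 to U969).

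Over the let-7 reads other than those of let-7c and let-7i, the means were 0.137% ± 0.0162 and 0.0955% ± 0.0201 (SD over 9 libraries; exact permutation test, adjusted p = 0.0032). No such form is listed for let-7i or let-7d-3p. Per 10000 reads of the member, the form was at 6.39 to 8.90 for let-7f with high and at 3.78 to 5.84 with low backfat. For let-7a it was at 14.6 to 21.5 against 10.1 to 17.9, for let-7g at 7.96 to 12.5 against 3.56 to 8.89, for let-7c at 4.68 to 8.89 against 2.95 to 5.61, and for let-7e at 18.5 to 24.8 against 10.6 to 25.7. For let-7d-5p, with 585 such reads in all, it was at 0 to 25.9 against 0 to 23.9, and for miR-98, with 158, at 0 to 9.51 against 0 to 4.81. As single entries none of those tested passed in edgeR (lowest adjusted p = 0.125, for let-7f at 0.72 ± 0.19 on the log2 scale). Forms with 2 extra T were at 0.135% ± 0.0262 and 0.112% ± 0.0152 (SD over 9 libraries; exact permutation test, adjusted p = 0.143).

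The shares of A7G, A10G, A7C and A10C divide the libraries into small sets. High replicates 1 and 3 were alike in A3T (5.54% and 5.71%), A7C (2.48% and 2.51%), A10C (1.69% and 1.78%) and A7G (0.0866% and 0.0923%), though their codes belong to different runs. High replicate 5 and low replicate 6 were alike in A3T (5.97% and 5.87%) and A10G, and high replicates 6 and 8 in A3T (0.827% and 0.897%) and A7G. What the libraries of a set share was not tested.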
